A study of Mus musculus with 12 samples.

Results

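Serpine2 and Plau are 2 of the 420 genes measured by targeted RNA sequencing in mouse pancreatic stellate cells (PSCs). They were chosen by name, as genes of plasminogen activation, with earlier results of these data known. Both were among the 238 genes tested. Plau encodes urokinase, a secreted serine protease that cuts plasminogen into plasmin. Plasmin dissolves fibrin, cleaves matrix glycoproteins and can cut the pro-forms of matrix metalloproteinases. Serpine2 encodes protease nexin-1, a secreted serpin held at the cell surface by heparan sulfate, which inhibits thrombin and also urokinase, tissue plasminogen activator and plasmin. PSCs are the fibroblast-like cells of the pancreas that deposit matrix when they are activated, and TGF-β1 is a classical activator of them.

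The cells were cultured PSCs of the C57BL/6 background, immortalised with SV40 large T antigen, from a mouse that carried a tamoxifen-inducible Cre recombinase at Rosa26 and floxed Pkn2 alleles. PKN2 is a serine/threonine kinase. The study's methods describe PKN2 deletion as induced by a short treatment of such cells with hydroxytamoxifen. Whether WT cells received it is not given in the sources used here. An effect of this treatment therefore cannot be told apart from that of the deletion. PKN2 WT and PKN2 KO cells received either vehicle or TGF-β1 (5 ng/ml), and RNA was taken after 72 h. Each of the 4 groups had libraries A, B and C, 12 in all. The study's methods call n in its cell experiments the number of biological replicates. They describe PSCs from a mouse of this genotype, and the labels do not say what a letter stands for. The p-values therefore measure the spread between these libraries, which may not reach that between mice. Pkn2 is not on the panel, so its deletion could not be examined here.

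Each library held between 1074095 and 1473153 counts. A normalized count is a gene's count divided by the authors' factor for that library. All 9 stellate cell or fibroblast markers on the panel had counts, and they took between 33.7% and 42.7% of the normalized counts of a library. The 5 epithelial and the 5 endothelial markers each summed to at most 57.4 and 22.6 normalized counts in any library. Of 6 leukocyte markers, Itgal and Cd84 had no count in any library, and the 6 together summed to at most 4.88. The leukocyte integrin chain gene Itgb2 was not among these 6. It averaged 19.1 (WT) and 21.5 (PKN2 KO) normalized counts with vehicle, and 7.18 and 6.10 with TGF-β1. The highest epithelial and leukocyte sums were both in PKN2 KO cells after TGF-β1. Single markers moved with TGF-β1 in the same comparisons as Serpine2 and Plau. The epithelial marker Lamb3 averaged 1.84 (WT) and 1.57 (PKN2 KO) normalized counts with vehicle, against 17.6 and 29.8 with TGF-β1. The epithelial marker Bcam went from 16.8 and 11.5 to 0.92 and 1.39, and the stellate marker Dcn from 21.5 and 35.3 to 0.98 and 3.69. Genes were tested if they had at least 10 normalized counts in at least 3 libraries. Lamb3 met this filter through TGF-β1 libraries alone, and Bcam and Dcn through vehicle libraries alone. Their values with TGF-β1 are thus given as a description. The stellate marker Postn rose in WT cells, by 0.96 on the log2 scale (adjusted p = 0.0089 in limma). No marker was called between genotypes with the authors' factors. With libraries scaled by their total counts, 1 stellate cell or fibroblast marker was called higher in PKN2 KO cells in vehicle. After TGF-β1, 2 were called higher and 1 lower with that scaling. The part of the markers in the results was not tested.

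Serpine2 (ENSMUSG00000026249) lies on the minus strand of chromosome 1, from 79794197 to 79861180 in GRCm38, and its protein has 397 residues. Plau (ENSMUSG00000021822) lies on the plus strand of chromosome 14, from 20836660 to 20843385, and its protein has 433 residues. The promoter sequence of Serpine2 is shown because the gene differed with both TGF-β1 and genotype. It is RefSeq's promoter for GRCm38.p6, chr1:79858697-79858915 on the minus strand, without the bases that GENCODE places in a first exon. A longer annotated transcript starts upstream, so the window lies in an intron of that transcript. Of the 2 genes, only Serpine2 was matched to a promoter sequence.
Serpine2: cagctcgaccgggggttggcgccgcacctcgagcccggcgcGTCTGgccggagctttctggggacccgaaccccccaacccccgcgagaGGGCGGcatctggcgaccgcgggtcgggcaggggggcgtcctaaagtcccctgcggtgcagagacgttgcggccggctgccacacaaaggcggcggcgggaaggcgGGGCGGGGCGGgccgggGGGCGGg

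Capitals mark GTCTG, the short SMAD half-site, and GGGCGG, the GC box. All motifs were searched on both strands. The half-site was found once, at -209 from the RefSeq start, and 38.4% of 32851 promoter windows of the same 219 bases held it. The GC box was found 4 times, with 2 of the matches sharing a base, and 28.3% of windows held at least 1. CATTCC, the TEAD site, was not in these letters and was in 11.4% of windows. TGACTCA, the AP-1 site, was not in them either and was in 3.98% of windows. The Serpine2 window was 77.6% G and C, against a median of 52.1% over all windows. These matches describe the letters of the window and were not tested for binding.

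PKN2 KO PSCs had more Serpine2 than WT PSCs, in vehicle and after TGF-β1. In vehicle, its normalized counts in libraries A, B and C were 38.9, 14.9 and 12.8 in WT cells. In PKN2 KO cells they were 208.6, 82.7 and 128.2. The groups did not overlap, and the lowest PKN2 KO library, B, was above the highest WT library, A. Of all genes tested, 32.4% had groups that did not overlap in this comparison. The means were 22.2 ± 14.5 in WT and 139.8 ± 63.8 in PKN2 KO cells (SD, n = 3). In limma, the log2 fold change was 2.67 (SE 0.54, 95% interval 1.51 to 3.83), with an adjusted p of 0.0041. It was the highest of the 238 fold changes in this comparison, in which 13.9% of genes passed the threshold of 0.05. With each library left out in turn it lay between 2.33 and 3.15, always past the threshold. In bulk RNA, more cells with the transcript and more transcript per cell cannot be told apart.

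After TGF-β1, WT cells had Serpine2 normalized counts of 9.44, 11.1 and 3.84 in libraries A, B and C. PKN2 KO cells had 75.2, 26.7 and 28.1. The groups again did not overlap, as was the case for 28.2% of genes. Library A of the PKN2 KO group stood above B and C, and library C of the WT group below A and B. The log2 fold change was 2.22 (SE 0.54, 95% interval 1.06 to 3.38; adjusted p = 0.0106 in limma), the 5th highest of 238, in a comparison that called 15.1% of genes. The call was lost without library C of WT (log2 fold change 1.81, adjusted p = 0.062) and without library A of PKN2 KO (1.74, adjusted p = 0.055).

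These WT libraries rest on few reads. The Serpine2 values were 8, 14 and 4 reads in WT cells after TGF-β1, and 55, 31 and 23 reads in PKN2 KO cells. The exact 95% Poisson interval of the WT library with 14 reads was 7.65 to 23.5, and that of the PKN2 KO library with 23 reads was 14.6 to 34.5, so these intervals overlapped. The interval of the WT library with 4 reads was 1.09 to 10.2. Such intervals cover counting error only. In vehicle, the 22 reads of WT library B had an interval of 13.8 to 33.3, and the 117 reads of PKN2 KO library B one of 96.8 to 140.2.

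**Figure D1:**
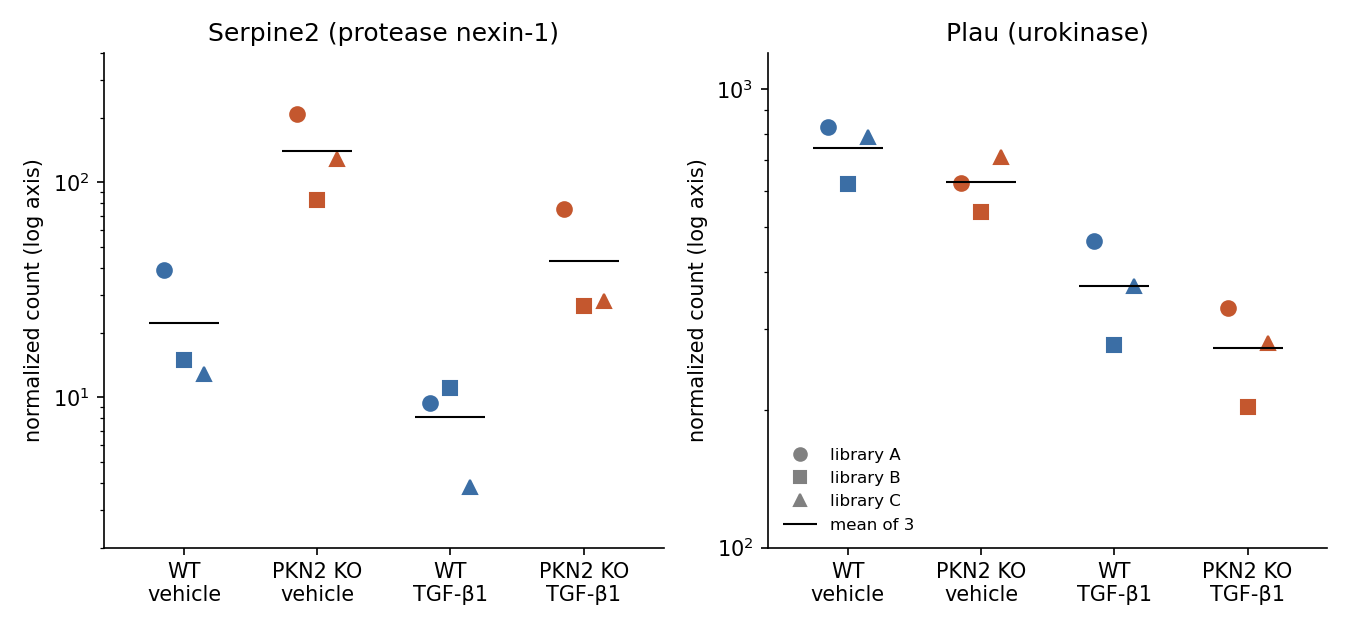
Normalized count (log axis) of Serpine2 (left) and Plau (right) in each library of the 4 groups, with WT in blue, PKN2 KO in orange, symbols for the library letter and a bar for the mean of 3. For Serpine2 the PKN2 KO libraries lie between 26.7 and 208.6 and the WT libraries between 3.84 and 38.9. For Plau every TGF-β1 library, at 467 or less, lies below every vehicle library, at 541 or more. Vehicle and TGF-β1 groups did not overlap for 55.9% of all genes tested in WT and 52.9% in PKN2 KO cells.

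Over both treatments, Serpine2 was 2.44 higher in PKN2 KO cells on the log2 scale, a 5.44-fold difference. An exact two-sided permutation test of the genotype labels within each treatment (400 arrangements) gave p = 0.005, the smallest it can give. With each library left out in turn the difference lay between 2.21 and 2.68. Between libraries of the same letter, the PKN2 KO value was from 5.36 to 10.0 times the WT value in vehicle. After TGF-β1 it was from 2.41 to 7.97 times the WT value, with library B lowest.

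Serpine2 was lower after TGF-β1 in PKN2 KO cells, and in WT cells the same direction did not pass the threshold. In PKN2 KO cells the mean normalized count was 139.8 ± 63.8 in vehicle and 43.3 ± 27.6 after TGF-β1, and the highest TGF-β1 library (75.2) lay below the lowest vehicle library (82.7). The log2 fold change was -1.74 (SE 0.54, 95% interval -2.90 to -0.58; adjusted p = 0.015 in limma). In this comparison 48.7% of genes passed the threshold and 52.9% had groups that did not overlap. The call was lost without library A in vehicle (log2 fold change -1.40, adjusted p = 0.080), without library B after TGF-β1 (-1.48, 0.059) and without library C after TGF-β1 (-1.52, 0.067).

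In WT cells, the mean Serpine2 normalized count was 22.2 ± 14.5 in vehicle and 8.12 ± 3.79 after TGF-β1. The highest TGF-β1 library (11.1) lay below the lowest vehicle library (12.8). The log2 fold change was -1.28 (SE 0.54, 95% interval -2.44 to -0.12), with an adjusted p of 0.061 in limma. The comparison called 50.8% of genes, and the groups of 55.9% did not overlap. The gene passed the threshold with 3 other scalings of the libraries, with adjusted p between 0.021 and 0.046. The DESeq2 Wald test with the authors' factors called it at an adjusted p of 0.041. In limma it also passed without library C of WT vehicle (adjusted p = 0.046), B of WT after TGF-β1 (0.048) or A of PKN2 KO after TGF-β1 (0.043). Over both genotypes the difference was -1.51 on the log2 scale (exact permutation p = 0.005, two-sided, 400 arrangements).

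The TGF-β1 difference of Serpine2 was not shown to depend on genotype. The interaction was -0.46 on the log2 scale, with a 95% interval from -2.10 to 1.19 and an adjusted p of 0.89 in limma, in a comparison that called 3.36% of genes. This interval is wide, so equal responses were not shown. Ordered by mean normalized count, PKN2 KO vehicle was highest, followed by PKN2 KO TGF-β1 (43.3), WT vehicle (22.2) and WT TGF-β1 (8.12). The 2 middle groups overlapped, at 26.7 to 75.2 and 12.8 to 38.9.

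Plau was lower after TGF-β1 in both genotypes. In WT cells, its normalized counts in libraries A, B and C were 827, 622 and 789 in vehicle. After TGF-β1 they were 467, 277 and 372. Every TGF-β1 library lay below every vehicle library, and the mean went from 746 ± 109 to 372 ± 94.95 (SD, n = 3). The groups of 55.9% of all genes tested did not overlap in this comparison. The log2 fold change was -1.02 (SE 0.22, 95% interval -1.50 to -0.54; adjusted p = 0.0013 in limma), a 2.03-fold lower level. TGF-β1 lowered 26.9% of all genes tested in WT cells past the threshold.

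In PKN2 KO cells, the normalized counts of Plau in libraries A, B and C were 625, 541 and 713 in vehicle. After TGF-β1 they were 334, 203 and 280, and the groups did not overlap, as was the case for 52.9% of genes. The means were 626 ± 86.4 and 272 ± 65.7. The log2 fold change was -1.22 (SE 0.22, 95% interval -1.70 to -0.74; adjusted p = 4.07e-04 in limma), a 2.33-fold lower level, where 29.0% of genes fell past the threshold. Plau passed the threshold in both genotypes in every alternative that was run.

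The Plau response was not shown to differ between genotypes. The interaction was -0.20 on the log2 scale, with a 95% interval from -0.88 to 0.48 and an adjusted p of 0.89 in limma. Over both genotypes the difference was -1.12 on the log2 scale, a 2.18-fold lower level after TGF-β1 (exact permutation p = 0.005, two-sided, the smallest of 400 arrangements). Each library was lower than the vehicle library of its letter, by 1.77 to 2.66 times.

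**Figure D2:**
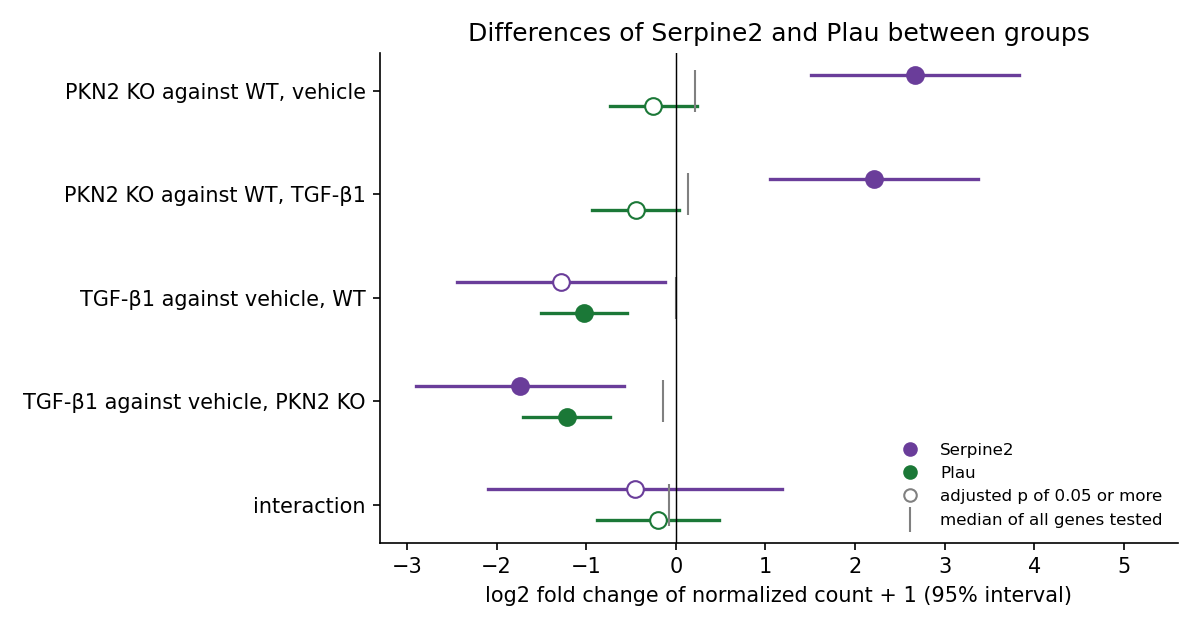
Log2 fold change of the normalized count + 1 (x axis) of Serpine2 and Plau in the 4 comparisons and the interaction, with 95% intervals from limma, open points for an adjusted p of 0.05 or more and a grey tick at the median of the 238 genes. Serpine2 lies at 2.67 and 2.22 in the genotype comparisons where Plau lies at -0.25 and -0.45, and both genes lie below 0 in the TGF-β1 comparisons.

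Whether Plau was called between genotypes after TGF-β1 depended on the scaling of the libraries and on whether the library letter was added to the fit. With the authors' factors, the log2 fold change of PKN2 KO against WT was -0.25 in vehicle (SE 0.22, adjusted p = 0.55 in limma) and -0.45 after TGF-β1 (SE 0.22, adjusted p = 0.20). The normalized counts overlapped between genotypes in both treatments. Between libraries of the same letter, the PKN2 KO value was the lower in all 6 pairs, with log2 differences of -0.40 to -0.15 in vehicle and -0.48 to -0.41 after TGF-β1. Over both treatments the difference was -0.35 (exact permutation p = 0.080, two-sided, 400 arrangements). After TGF-β1 it passed the threshold with TMM scaling (-0.56, adjusted p = 0.031), the median of ratios over all genes (-0.57, 0.028) and the total count (-0.46, 0.010). In vehicle none of these 3 scalings gave a call.

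Expressed as RPM (reads scaled to a total of 1000000 counts in each library), Plau in vehicle was 653, 625 and 691 in WT libraries A, B and C and 488, 573 and 525 in PKN2 KO libraries. After TGF-β1 it was 292, 256 and 265 in WT and 194, 196 and 202 in PKN2 KO cells. On this scale every PKN2 KO library lay below every WT library of its treatment, as did 12.2% of genes in vehicle and 16.4% after TGF-β1. The permutation test over both treatments gave a difference of -0.39 with p = 0.005 (exact, two-sided) when the counts were scaled in this way, which was tried once the values were known.

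The median log2 fold change of the 238 genes shifted with the scaling, from 0.21 with the authors' factors to -0.02 with the median of ratios in vehicle, and from 0.13 to 0.01 after TGF-β1. Over the 4 scalings the log2 fold change of Plau lay between -0.48 and -0.25 in vehicle and between -0.57 and -0.45 after TGF-β1. That of Serpine2 lay between 2.45 and 2.67 in vehicle and between 2.10 and 2.22 after TGF-β1. A scaling moves each gene and the median almost alike, so the distance from the median says nothing about the choice of scaling. With the authors' factors that distance was -0.46 and -0.58 for Plau and 2.46 and 2.09 for Serpine2 in vehicle and after TGF-β1.

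The ratio of Serpine2 to Plau within a library does not depend on its scaling factor, apart from the 1 added to each count. Its size also depends on the primers of the panel, so the ratios are compared between libraries and do not give the relative amounts of the 2 transcripts. WT libraries A, B and C had 4.71, 2.39 and 1.63 reads of Serpine2 per 100 reads of Plau in vehicle. PKN2 KO libraries had 33.4, 15.3 and 18.0. After TGF-β1 the values were 2.02, 3.99 and 1.03 in WT and 22.5, 13.1 and 10.0 in PKN2 KO libraries. The lowest PKN2 KO library, C after TGF-β1, was above the highest WT library, A in vehicle.

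PKN2 KO cells had a log2 ratio 2.79 above that of WT cells over both treatments, a 6.93-fold difference (exact permutation p = 0.005, two-sided, the smallest of 400 arrangements). It was 2.92 higher in vehicle and 2.66 higher after TGF-β1, where 3 against 3 libraries allow no exact p below 0.1. No difference in the ratio with TGF-β1 was shown. It was -0.39 over both genotypes (exact permutation p = 0.325, two-sided), -0.26 in WT cells (exact permutation p = 0.7) and -0.52 in PKN2 KO cells (exact permutation p = 0.4). With each library left out, the genotype difference lay between 2.58 and 3.02 and kept p = 0.005 in the exact permutation test.

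**Figure D3:**
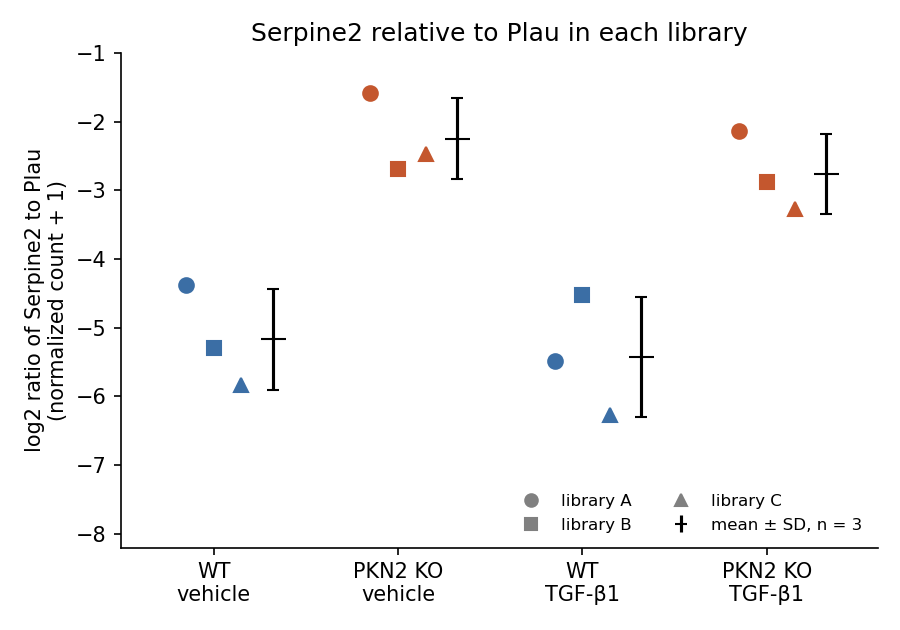
Log2 ratio of Serpine2 to Plau in each library, from normalized counts + 1 (y axis), for the 4 groups, with symbols for the library letter and bars for the mean ± SD of 3 libraries. The PKN2 KO libraries lie between -3.27 and -1.58 and the WT libraries between -6.27 and -4.37.

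Among the other inhibitors of plasminogen activators and of plasmin, no gene but Serpine2 passed the threshold between genotypes. Of 6 listed genes, 3 were tested, and Serpine2 alone was called for genotype, higher in each treatment. Among all genes tested, 10.9% were called higher in PKN2 KO cells in vehicle and 8.82% after TGF-β1. Serpini1, which encodes neuroserpin, an inhibitor of tissue plasminogen activator, had 31.9 ± 2.64 normalized counts in WT vehicle and 31.0 ± 9.55 in PKN2 KO vehicle. It fell with TGF-β1 in PKN2 KO cells, to 13.0 ± 3.87 (log2 fold change -1.19, adjusted p = 0.010 in limma), but not past the threshold without library C of PKN2 KO vehicle (adjusted p = 0.053). In WT cells it was 17.4 ± 3.22 after TGF-β1 (log2 fold change -0.85, adjusted p = 0.053), and with the 3 other scalings it passed the threshold there too (adjusted p from 0.024 to 0.041). Serpinf2, which encodes α2-antiplasmin, had mean levels between 7.89 and 15.8 in the 4 groups and was called in no comparison. Serpine3, Serpinb2 and Serpina5 had at most 3, 9 and 3 reads in any library and were not tested. The median genotype log2 fold change of the 3 tested genes, Serpine2 among them, is the value of Serpinf2 alone. It was 0.82 in vehicle (adjusted p = 0.33 in limma), beside 0.21 over all genes, and 0.28 after TGF-β1 (adjusted p = 0.78), beside 0.13.

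Of the 4 serpins that inhibit thrombin, 3 were tested, and Serpine2 alone was called. It was higher in PKN2 KO cells in both treatments, where 10.9% (vehicle) and 8.82% (TGF-β1) of all genes were called higher. It was lower with TGF-β1 in PKN2 KO cells, where 29.0% of all genes fell. Serpind1, which encodes heparin cofactor II, had 14.5 ± 5.45 normalized counts in WT vehicle and 37.0 ± 17.6 in PKN2 KO vehicle (log2 fold change 1.24, adjusted p = 0.17 in limma). Serpinc1, which encodes antithrombin, had means between 7.03 and 13.4. The median of the 3 tested genes, Serpine2 among them, is the value of Serpind1 alone. This median was 1.24 in vehicle and 0.93 after TGF-β1 (adjusted p = 0.29 in limma) for genotype. It was 0.20 in WT and -0.11 in PKN2 KO cells for TGF-β1.

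Of the 30 other serpins analysed on the panel, which include those named above, 10 had no count and 11 were tested. In vehicle 2 of the 11 were called higher in PKN2 KO cells and none lower, where 10.9% of all genes were called higher. After TGF-β1, 3 were called higher and none lower, where 8.82% of all genes were. Serpinb6a, an intracellular serpin, was called as well with each of the 3 other scalings (adjusted p from 0.018 to 0.043), and Serpinf1, which encodes pigment epithelium-derived factor, with total count scaling (adjusted p = 0.030), which brought the count to 4 or 5. The medians were 0.46 and 0.49, beside 0.21 and 0.13 over all genes. Serping1, which encodes the C1 inhibitor of complement, had 166 ± 63.6 normalized counts in WT vehicle and 450 ± 63.7 in PKN2 KO vehicle (log2 fold change 1.51, adjusted p = 0.0044 in limma). After TGF-β1 it had 31.6 ± 0.87 in WT and 182 ± 68.2 in PKN2 KO cells (2.42, adjusted p = 8.50e-05).

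Serpinb8, an intracellular serpin, was higher in PKN2 KO cells by 0.94 in vehicle (adjusted p = 0.0011 in limma) and 1.95 after TGF-β1 (adjusted p = 4.54e-07) on the log2 scale. Its interaction was called at 1.01 (adjusted p = 0.026), a call that was lost with total count scaling and without any 1 of 6 libraries. Serpinb1a, an inhibitor of neutrophil proteases, was higher in PKN2 KO cells after TGF-β1 by 1.84 (adjusted p = 0.0025). With TGF-β1, 4 of the 11 fell in WT cells, beside 26.9% of all genes, and 3 in PKN2 KO cells, beside 29.0%, so these counts are near the background. None rose. Serpinb1a fell most, from 446 ± 153 to 28.7 ± 15.7 normalized counts in WT and from 772 ± 119 to 96.0 ± 19.1 in PKN2 KO cells. Serping1 fell in both genotypes, Serpinb8 (log2 fold change -0.96) and Serpinb9 (-0.82), another intracellular serpin, in WT cells, and Serpini1 in PKN2 KO cells. The Serpinb9 call was lost without any 1 of 4 libraries. With TMM scaling or the median of ratios, Serpinb6a and Serpinh1, a collagen chaperone, rose with TGF-β1 in PKN2 KO cells.

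Of 5 matrix metalloproteinase genes whose pro-forms plasmin cleaves, Mmp9 and Mmp13 were tested. Both met the filter of 10 normalized counts in 3 libraries through TGF-β1 libraries alone, so their higher levels with TGF-β1 are given as a description. Mmp9, a gelatinase, had 0, 0 and 1 reads in WT vehicle and 2, 2 and 0 in PKN2 KO vehicle. After TGF-β1 it had normalized counts of 284, 149 and 214 in WT libraries A, B and C and 21.9, 28.4 and 45.2 in PKN2 KO libraries. It was thus lower in PKN2 KO cells after TGF-β1 (log2 fold change -2.74, SE 0.51, adjusted p = 0.0015 in limma), in libraries where Serpine2 was higher. Its interaction was called at -3.41 (adjusted p = 0.026), but its fold changes with TGF-β1 rest on few vehicle reads and on the 1 added to each count, and the interaction was not called by edgeR or without any 1 of 5 libraries. Mmp13, a collagenase, had 10.1 ± 6.26 normalized counts in WT and 15.9 ± 10.5 in PKN2 KO cells after TGF-β1, and at most 3 reads in any vehicle library. Its genotype difference after TGF-β1 was 0.55 (adjusted p = 0.68). Mmp1a had no count, and Mmp3 and Mmp10 had at most 2 and 4 reads in any library.

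The panel genes for vitronectin and for integrin chains, which meet the urokinase receptor at the cell surface, included genes that rose and genes that fell with TGF-β1. Of 9 listed genes, 7 were tested. With TGF-β1, 4 rose and 2 fell in WT cells, where 23.9% of all genes rose and 26.9% fell. In PKN2 KO cells, 3 rose and 2 fell, where 19.7% of all genes rose and 29.0% fell. Itgb3, the β3 chain of the vitronectin receptor, rose from 42.8 ± 24.2 to 472 ± 175 normalized counts in WT (log2 fold change 3.50, adjusted p = 1.60e-06 in limma) and from 95.9 ± 22.5 to 573 ± 207 in PKN2 KO cells (2.53, adjusted p = 5.23e-05). Itga5, the α5 chain of the fibronectin receptor, rose by 2.10 and 1.86 on the log2 scale. Itga3, a laminin-binding chain, fell by 1.75 and 2.12, and Itgb2, a leukocyte chain, fell by 1.31 and 1.65. Itgb2 met the filter through vehicle libraries alone, so its fall is given as a description. Without it, Itga3 is the only gene in the counts of those that fell in WT and in PKN2 KO cells.

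Between genotypes, Itgb3 alone of the 7 was called, higher in PKN2 KO vehicle by 1.25 (adjusted p = 0.038 in limma), where 13.9% of all genes were called. This call was lost with TMM scaling, with the median of ratios, with edgeR, without a variance trend and without any 1 of 7 libraries. With total count scaling Itgb5, the β5 chain, was called higher in PKN2 KO cells in both treatments (log2 fold change 0.39 and 0.42, adjusted p = 0.023 and 0.0092). Vtn, which encodes vitronectin, had at most 2 reads in any library. The urokinase receptor, tissue plasminogen activator and plasminogen genes were not analysed here.

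Of 7 genes for matrix proteins that bind or are cut by these proteases, all were tested. The basement membrane collagen genes Col4a1 and Col4a2 were higher in PKN2 KO cells by 0.94 and 0.95 in vehicle (adjusted p = 0.0038 and 0.038 in limma) and by 0.99 and 0.96 after TGF-β1 (adjusted p = 0.0016 and 0.032) on the log2 scale. The share of all genes called higher in PKN2 KO cells was 10.9% in vehicle and 8.82% after TGF-β1. Col4a2 was not called when some single libraries were left out, 6 of them in vehicle and 5 after TGF-β1. Thbs1, which encodes thrombospondin-1, had 22541 ± 4790 normalized counts in WT and 12106 ± 2901 in PKN2 KO cells after TGF-β1 (log2 fold change -0.90, adjusted p = 0.011). The Thbs1 call was lost without library A or C of the WT group. With TGF-β1, Thbs1 and Lamb1, a laminin chain gene, rose in WT cells by 1.54 and 1.01, and Lamb1 rose in PKN2 KO cells by 0.89. With each of the 3 other scalings, Thbs1 rose in PKN2 KO cells too (by 0.29 to 0.55, adjusted p from 0.0069 to 0.041) and had a called interaction (-0.94 with the median of ratios, adjusted p = 0.021). Fn1, which encodes fibronectin, was called in no comparison with the authors' factors. With total count scaling, Fn1 and Hspg2, the perlecan gene, were called higher in PKN2 KO vehicle (log2 fold change 0.74 and 0.69, adjusted p = 0.021 and 0.0029). The medians of the list were 0.76 in vehicle and 0.31 after TGF-β1 for genotype.

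**Figure D4:**
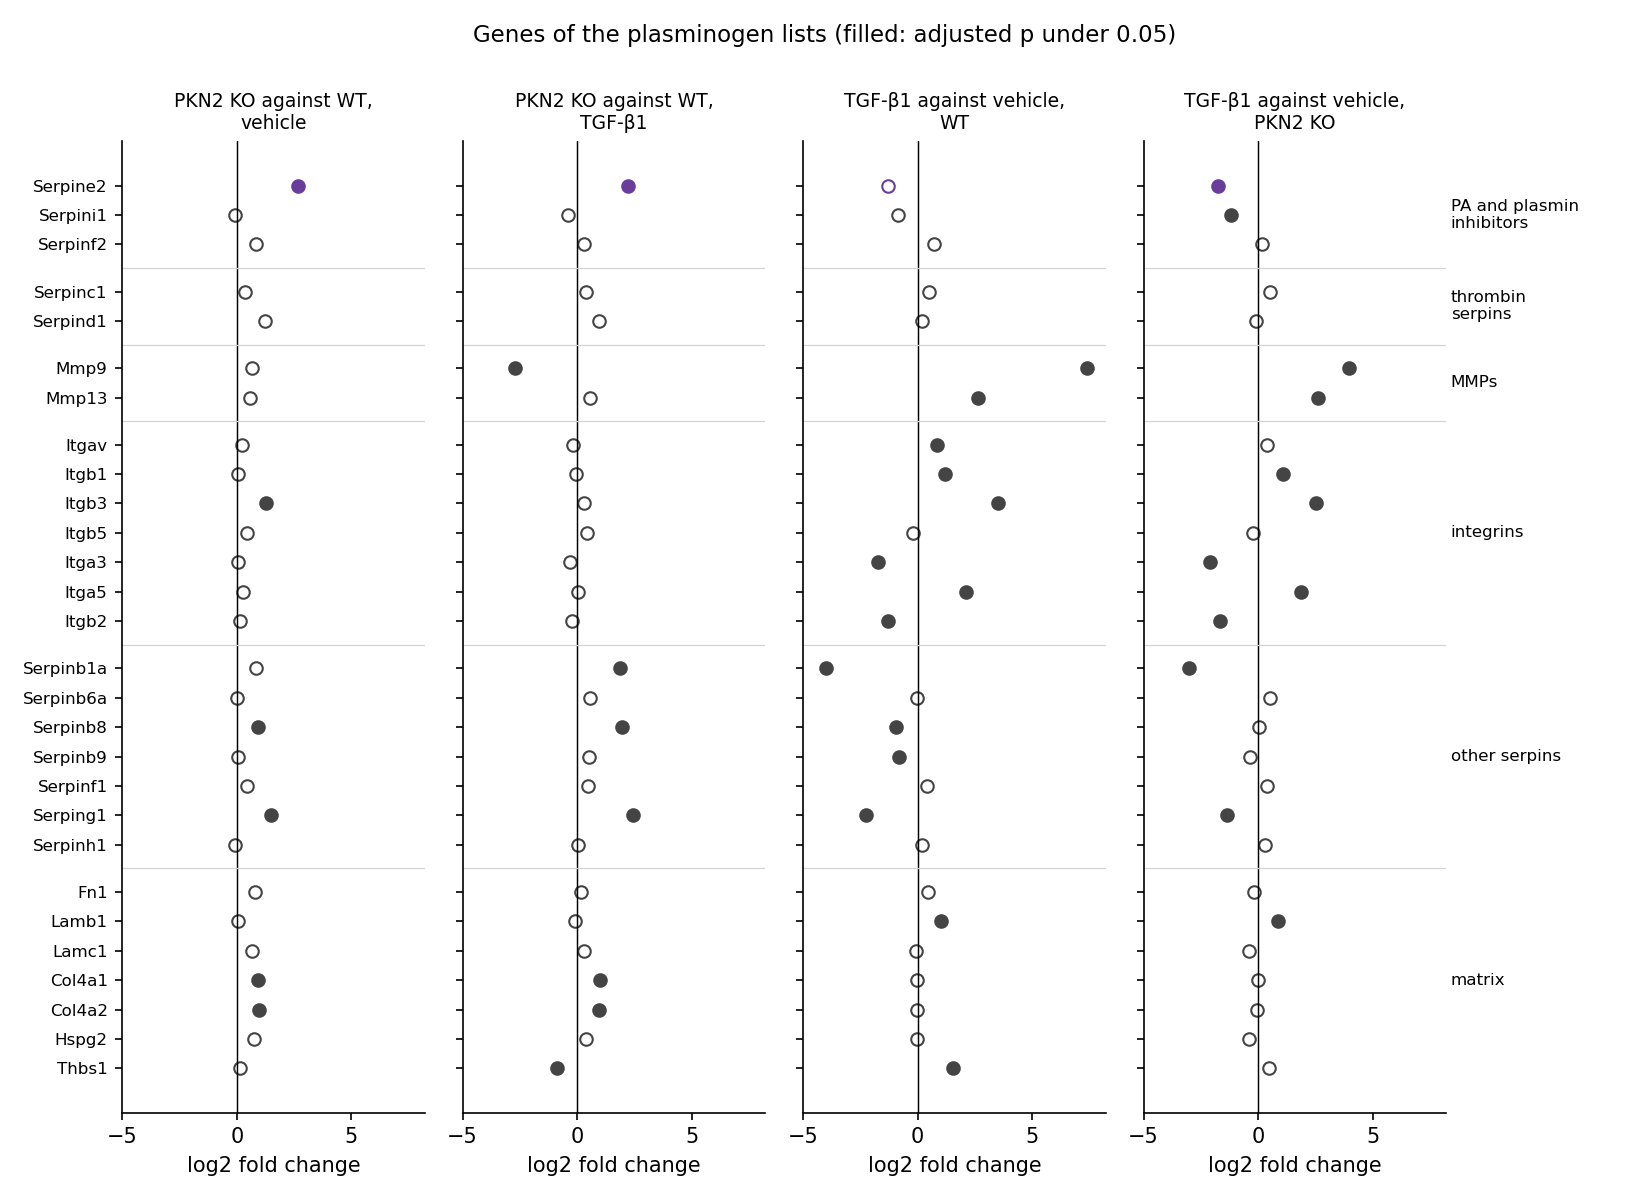
Log2 fold change (x axis) of the tested genes of the 6 lists in the 4 comparisons, filled where the adjusted p from limma was under 0.05, with Serpine2 in purple. Serpine2, Serping1 and Serpinb8 are filled on the higher side in both genotype comparisons, and Mmp9 lies at -2.74 for genotype after TGF-β1 and at 7.38 and 3.97 for TGF-β1.

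The genes whose pattern over the 12 libraries was most like that of Serpine2 were Col15a1, a basement membrane collagen gene (Pearson r = 0.92), Serping1 (r = 0.91) and Sgcd, the δ-sarcoglycan gene (r = 0.91). Col15a1 had 8.66 ± 1.98 and 31.4 ± 11.5 normalized counts in WT and PKN2 KO vehicle. After TGF-β1 it had 3.59 ± 0.99 and 23.0 ± 10.9. All 3 were higher in PKN2 KO cells and lower after TGF-β1 by their means. They were picked for their likeness to Serpine2 over these same libraries, so a shared pattern follows from the choice.

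The genes most like Plau were Fbln5, which encodes the elastic fibre protein fibulin-5 (r = 0.96), Timp3, a metalloproteinase inhibitor gene (r = 0.95), and Nid1, the nidogen-1 gene of basement membranes (r = 0.95). Fbln5 had 1966 ± 558 normalized counts in WT vehicle and 386 ± 133 in WT TGF-β1 cells. After subtraction of group means, the correlations with Plau were 0.95, 0.93 and 0.92, and those of Serpine2 with its 3 genes were 0.67, 0.71 and 0.74. Values of a library share its factor, which moves all its genes together. Serpine2 and Plau had r = 0.27 over the 12 libraries.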

How the data were processed

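RNA from WT and PKN2 KO mouse PSCs, 3 libraries for each of vehicle and TGF-β1, was measured by the authors with a targeted panel of matrix and adhesion genes. The deposited files hold raw counts and 2 matrices of normalized counts, 1 of the vehicle and 1 of the TGF-β1 libraries. Treatment and matrix thus coincide, and the study's methods do not say whether the factors of both were set together. Normalized counts are a signal at or above 0, for which the authors divided the counts of a library by 1 factor from reference genes (DESeq2 1.32). STAR and mm10 are named in the submitters' processing notes. Whether molecular tags were collapsed is not given in the sources used here. Among the raw counts, 6 columns share names with others and were not assigned to a sample. The 12 libraries were taken from the normalized tables, and whole reads were recovered by dividing by each library's step (largest deviation 5.8e-05). In the 6 libraries with a raw column of their own, these reads matched it for each of the 420 genes. Values rest on 1074095 to 1473153 counts per library.

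Genes with at least 10 normalized counts in at least 3 libraries (238 of 420; 77 had no count) were tested with limma 3.58.1 (R 4.3.3) on log2(normalized count + 1), which understates changes of low genes, with 1 mean per group, a variance trend, robust estimation and Benjamini-Hochberg adjustment over the 238 genes at 0.05. Fold changes are on this scale. Exact permutation tests used Python 3.11.15. Scripts were tested on simulated data. Alternatives were TMM, median-of-ratios and total count scaling, pseudocounts of 0.5 and 5, other filters, edgeR 4.0.16, DESeq2 1.42.0, no variance trend, a replicate block and each library left out.

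The 2 genes and the lists were chosen with earlier results of these data known. In each list and comparison up to 4 genes past the threshold were named, by size of change, and values of some others are given beside them. Some genes were singled out after their values were seen: Serpind1, Serpinc1, Serpinf2 and Fn1. The genes most like each member were the 3 with the highest correlation over 12 libraries. Correlations, promoters and list medians carry no test. An item of the panel is not reported here.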

Additional observations from a re-analysis of the deposited data

How the results depend on the processing

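No result for Serpine2 or Plau changed direction in the 331 alternatives run over 16 results, and 307 kept their side of the threshold. Some of these alternatives could not change a direction. The log2 fold change of a comparison stays the same when a library outside its groups is left out. The filter, the variance trend and the replicate block also leave it as it is and act on the p-value alone. These totals therefore do not measure how firm a direction is. Serpine2 with TGF-β1 in WT cells passed it with TMM scaling (-1.31), the median of ratios (-1.32), the total count (-1.50) and the DESeq2 Wald test (-1.42). With single libraries left out it lay between -1.57 and -0.80, and 3 of these 12 fits also passed. Plau for genotype after TGF-β1 passed it with TMM (-0.56), the median of ratios (-0.57) and the total count (-0.46), and lay between -0.64 and -0.25 with libraries left out. The Plau difference over both treatments had p = 0.005 in the exact permutation test with TMM (-0.50), the median of ratios (-0.53) and the total count (-0.39), alternatives chosen after the values were seen. With libraries left out it lay between -0.45 and -0.25. Serpine2 for genotype after TGF-β1 lay between 1.74 and 2.47 and for TGF-β1 in PKN2 KO cells between -2.21 and -1.40 with libraries left out. The cause of these changes was not tested. The filter of 10 in every library left Serpine2 out and gives no value for it.

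Of 18 pairs of libraries with the same letter, 13 had a correlation of their deviations from group means over 0.1 (mean 0.39, lowest -0.23). The pairs of letters A and B lay between 0.35 and 0.70, and those of letter C between -0.23 and 0.14. Libraries A and B thus shared variation by letter, and its source was not tested. As the labels do not say what a letter stands for, the main fit did not take the letters as pairs. With the letter as a replicate block, Serpine2 with TGF-β1 in WT cells (-1.28) had an adjusted p of 2.31e-04 in limma, and 0.012 without a variance trend. Plau for genotype after TGF-β1 (-0.45) had 0.0030 and 0.025. With the block and the trend, 197 of 238 genes had infinite prior degrees of freedom, so those p-values are smaller than 12 libraries allow. No other call for the 2 genes changed with the block.

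For the other named genes, 804 of 849 alternatives kept the call and 45 lost it, with no change of direction. Here too, some alternatives could not change a direction. Depth limits Serpine2 in WT cells after TGF-β1, with 4 to 14 reads per library. Over all genes, the count called for genotype in vehicle was 33 (26 higher and 7 lower) and 87 (block) or 71 (block without a trend), and 17, 18 and 20 without library C of WT vehicle, A or C of PKN2 KO vehicle. TMM gave 20 higher and 13 lower, and the median of ratios 19 and 20. After TGF-β1 it was 36 (21 higher and 15 lower), and 56 for TMM (27 and 29), 55 for the median of ratios (25 and 30), 65 for the total count, and 101 and 90 with the block. For the interaction it was 8, and 4 without a variance trend, 42 and 17 with the block, and as low as 0 in limma with a library left out (B of PKN2 KO vehicle or C of WT TGF-β1), where 21 and 16 genes had an unadjusted p under 0.05.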
